A study of Mus musculus with 2 samples.

Results

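The genes described here are the secreted Wnt ligands with the receptors and modulators that act on them. They are the rows of the deposited gene table whose symbol names a Wnt ligand (Wnt), a Frizzled receptor (Fzd), an R-spondin (Rspo), a secreted Frizzled-related protein (Sfrp) or a Dickkopf (Dkk), together with Lrp5, Lrp6, Wif1, Axin2, Lef1, Tcf7, Ror1, Ror2 and Ryk. They are 50 of the 38972 genes listed. The study sequenced total RNA of mouse lung fibroblast preparations, with 1 library for each genotype. The KO library came from myoFoxf1 KO mice, which carry both floxed Foxf1 alleles and αSMA-Cre-ERT2, a tamoxifen-dependent Cre recombinase under the smooth muscle actin promoter. The CON library came from bleomycin-treated Foxf1fl/fl littermates without the Cre, so both genotypes carry the floxed alleles, and both are on the C57Bl/6 background. The protocol gives intratracheal bleomycin, a drug that scars the lung, at 1 or 2 U/kg weekly for 2 to 4 weeks, and tamoxifen at 40 mg/kg to transgenic mice on days 2 to 4. Dose, duration, age of the mice, number of mice per library and isolation method are not stated for these libraries, and bleomycin is named in the title of the CON sample but not in that of the KO sample. The Cre is driven by the smooth muscle actin promoter, so deletion is directed at cells that use it, and Foxf1 was not measured here by cell type.

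Wnt proteins are lipid-modified signals that bind a Frizzled receptor together with a co-receptor. With Lrp5 or Lrp6 the signal keeps beta-catenin from being degraded, and beta-catenin then works with transcription factors of the TCF/LEF family, whose target Axin2 feeds back on the pathway. With Ror1, Ror2 or Ryk the signal runs through branches that do not need beta-catenin. R-spondins strengthen the signal by keeping Frizzled on the cell surface. Sfrp proteins and Wif1 bind Wnt proteins outside the cell, and Dickkopf proteins other than the divergent Dkk3 act on the co-receptors. In the lung, Wnt signals pass between mesenchyme and epithelium during development and repair.

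Reads assigned to genes summed to 15122824 in the KO library and 16145959 in the CON library. Levels are given as reads and as CPM, counts scaled to the TMM-normalised library size, and differences as the log2 ratio of KO over CON. A single library per genotype leaves no replicate spread to set a difference against, so no test of the genotypes was possible. The 95% interval beside a ratio is the exact interval for counting error between these libraries alone. A gene was measured when it had at least 1 CPM in either library and 20 reads in both together, and it was called lower or higher when the ratio was at least 2-fold and the interval excluded 1. By this rule 14.2% of the 14455 measured genes were lower in KO and 9.37% were higher, and the median ratio over all measured genes was 0.01. Foxf1, the floxed gene, had 49 reads (3.61 CPM) in KO and 158 reads (8.77 CPM) in CON, a ratio of -1.27 (-1.77 to -0.81) that was called lower, and -0.84 without a call after the ratios were corrected for GC content and transcript length. Markers of other lung cells were present in both libraries. The 11 macrophage markers summed to 44211 CPM in KO and 21781 CPM in CON, far above the 15 fibroblast markers at 799.6 CPM in KO and 1693 CPM in CON. Such a sum does not give the share of RNA that a cell type supplied. In bulk RNA, fewer cells of a type and less RNA per cell cannot be told apart.

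Among the 50 genes, 30 were measured. Of these 15 were called lower in KO and none higher, against 14.2% lower and 9.37% higher over all measured genes, and the median ratio was -0.996. A gene can pass the filter through its level in 1 library only. Wnt2, Wnt5b and Wnt10b did so through CON, and among the 27 Wnt genes with at least 1 CPM in both libraries 12 were lower, against 11.6% of all genes with that level in both. The calls were unevenly spread over the roles. Lower calls took in 7 of 9 measured ligands, the single measured R-spondin, 2 of 5 antagonists, 2 of 4 co-receptors and 2 of 8 Frizzled receptors, as well as Axin2 among the 3 intracellular genes. Of the 6 ligands with at least 1 CPM in both libraries 4 were lower, as were 2 of the 8 Frizzled genes with that level. Counted over the 50 rows without any filter, CPM was lower in KO for 36 genes and higher for 12, against 10923 lower and 10264 higher over all genes of the table, and Dkk1 and Dkk4 had 0 reads in both libraries.

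**Figure D1:**
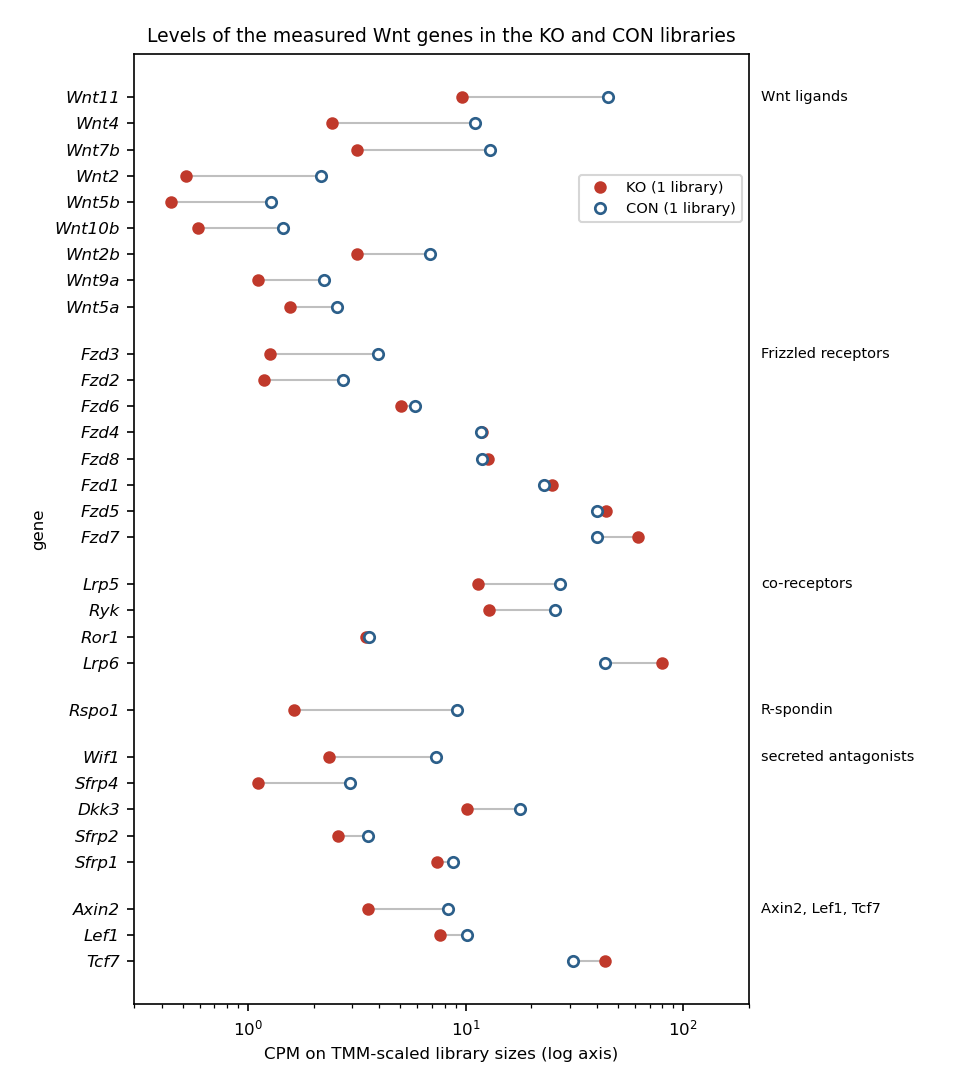
Level of each of the 30 measured Wnt genes in CPM (x axis, log scale) in the KO library (filled red) and the CON library (open blue), grouped by role, with 1 library per group. The 9 ligands all lie further left in KO, while Fzd7 (62.1 CPM in KO, 40.2 CPM in CON) and Lrp6 (79.6 CPM in KO, 43.8 CPM in CON) lie further right.

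To show the sequence before the start site of genes that the comparison turns on, the 250 bases upstream of 4 of them are given, from the RefSeq promoter table on GRCm38.p6. Wnt11 was the ligand with the most reads, Rspo1 had the lowest measured ratio, Axin2 is the feedback target and Fzd7 was the Frizzled gene with the highest level in both libraries. Capitals mark the letters of a TCF/LEF motif.
Wnt11 (chr7:98834862-98835111, + strand): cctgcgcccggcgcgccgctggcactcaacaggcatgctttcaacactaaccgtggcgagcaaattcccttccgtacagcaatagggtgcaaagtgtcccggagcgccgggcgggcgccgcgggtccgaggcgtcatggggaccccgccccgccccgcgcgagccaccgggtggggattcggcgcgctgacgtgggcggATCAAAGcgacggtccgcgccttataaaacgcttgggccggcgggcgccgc
Rspo1 (chr4:124986180-124986429, + strand): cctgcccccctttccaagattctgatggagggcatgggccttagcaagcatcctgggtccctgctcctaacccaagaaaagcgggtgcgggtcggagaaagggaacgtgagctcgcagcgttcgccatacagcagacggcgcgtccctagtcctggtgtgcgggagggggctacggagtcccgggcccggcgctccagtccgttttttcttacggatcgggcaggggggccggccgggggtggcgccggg
Axin2 (chr11:108920099-108920348, + strand): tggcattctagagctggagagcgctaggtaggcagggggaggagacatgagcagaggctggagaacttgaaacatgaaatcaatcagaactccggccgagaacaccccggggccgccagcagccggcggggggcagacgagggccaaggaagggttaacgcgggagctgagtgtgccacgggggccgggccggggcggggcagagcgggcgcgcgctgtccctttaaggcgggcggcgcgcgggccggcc
Fzd7 (chr1:59481897-59482146, + strand): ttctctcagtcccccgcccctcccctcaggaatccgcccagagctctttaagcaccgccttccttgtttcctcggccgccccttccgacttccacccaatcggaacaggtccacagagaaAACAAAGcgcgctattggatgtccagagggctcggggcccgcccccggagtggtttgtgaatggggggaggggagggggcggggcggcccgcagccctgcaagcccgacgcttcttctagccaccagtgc

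Of the 50 genes 34 were matched to the promoter table, with 41 windows between them. The TCF/LEF motif was searched on both strands in the forms CTTTGAA or CTTTGAT, with their variants CTTTGTA or CTTTGTT. It was present in 5 member windows (12.2%), those of Wnt11, Fzd7 and Dkk1 and 1 alternative start each of Wnt5b and Lef1, and in 14.8% of all 32851 windows. In Wnt11 it began 51 bases before the start and in Fzd7 130 bases before, so it was found beside a gene that was lower and beside one that was not. The forkhead motif was searched as GTAAACA or GTAAATA on both strands. No member window held it, against 5.76% of all windows. These windows were rich in GC, with a median of 66.8% GC and 22 CpG pairs in the member windows, against 52.4% and 6 over all windows. A match is only a run of letters, and its absence says nothing about binding of a factor.

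All 9 measured Wnt ligands had a ratio below 0, with a median of -1.46, although relative to the fibroblast markers Wnt9a (0.06) and Wnt5a (0.33) turned above 0. That median is the ratio of Wnt5b, a gene of few reads. With the GC and length correction the ligand median was -1.14. Wnt11, a ligand known mainly for signalling without beta-catenin, had 130 reads (9.59 CPM) in KO, against 813 reads (45.1 CPM) in CON, a ratio of -2.23 (-2.51 to -1.97). This was the most abundant ligand in both libraries and the call rests on more reads than that of any other ligand. Wnt4, a ligand of kidney and gonad development, had 33 reads (2.43 CPM) in KO and 199 reads (11.05 CPM) in CON, with a ratio of -2.17 (-2.76 to -1.65). In KO, Wnt7b, a ligand of lung epithelium that acts on the mesenchyme, stood at 43 reads (3.17 CPM), against 233 reads (12.9 CPM) in CON, a ratio of -2.02 (-2.53 to -1.55). An antisense gene model of the Wnt7b locus, AU022754, had 0 reads in KO and 7 in CON, few beside those of Wnt7b.

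Wnt2 and Wnt2b are the mesenchymal ligands that specify the lung in the embryo. Wnt2 was at 7 reads (0.52 CPM) in KO, against 39 reads (2.17 CPM) in CON, and its ratio of -2.003 had a wide interval of -3.47 to -0.89. Wnt2b was at 43 reads (3.17 CPM) in KO, against 123 reads (6.83 CPM) in CON, a ratio of -1.10 (-1.64 to -0.59). Both were called lower, but Wnt2b lost its call with the GC and length correction (-0.56), and both lost it relative to the fibroblast markers and with FPKM plus 1. Wnt5b had 6 reads (0.44 CPM) in KO and 23 reads (1.28 CPM) in CON (-1.46, -3.11 to -0.19), and Wnt10b had 8 reads (0.59 CPM) in KO and 26 reads (1.44 CPM) in CON (-1.25, -2.64 to -0.11), so both calls rest on few reads. Wnt5b overlaps Fbxl14 on the other strand, which had 552 reads in KO and 826 in CON, and as the Nextera XT kit does not mark strand, reads of the overlap cannot be assigned. Wnt9a missed the 2-fold rule with 15 reads (1.11 CPM) in KO and 40 reads (2.22 CPM) in CON (-0.98, -1.97 to -0.12). Wnt5a, the ligand of the Ror receptors, had 21 reads (1.55 CPM) in KO and 46 reads (2.55 CPM) in CON (-0.71, -1.54 to 0.05), an interval that includes no difference.

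The other 10 ligands stayed below the filter. Wnt1, Wnt3, Wnt8a, Wnt8b and Wnt10a had 0 reads in KO and between 1 and 6 in CON. Wnt6 had 4 reads in KO and 9 in CON, Wnt9b had 2 in KO and 6 in CON, Wnt7a had 3 in KO and 4 in CON, Wnt16 had 2 in each, and Wnt3a had 4 in KO and 3 in CON. For each of these 10 the counting interval included no difference. Several Wnt genes sit in pairs on a chromosome, and in 2 of these pairs 1 partner was measured and the other was not. Wnt9a was measured, while Wnt3a, 16175 bases away on chromosome 11, had 7 reads in all. Wnt10b was measured, while Wnt1, 11706 bases away on chromosome 15, had a single read.

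FPKM, the authors' read count scaled to gene length and to total reads, allows levels to be compared between genes. FPKM is scaled to total reads, and on that scale the median ratio of all measured genes was -0.32 where TMM scaling gave 0.01. Summed over the 19 ligands, FPKM was 5.68 in KO and 26.4 in CON. Wnt11 alone held 41.7% of the ligand sum in KO and 52.6% in CON. Wnt2b came next in KO with 13.3% of the sum, while in CON Wnt7b was next with 12.4%. For the 10 Frizzled genes the sum was 29.6 in KO and 31.9 in CON. Ligand FPKM was therefore 0.192 of Frizzled FPKM within the KO library and 0.825 of it within the CON library, a ratio on which the scaling between libraries has no effect. The ratio is not corrected for GC content, whose median was 56.4% in the measured ligands and 52.2% in the measured Frizzled genes.

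**Figure D2:**
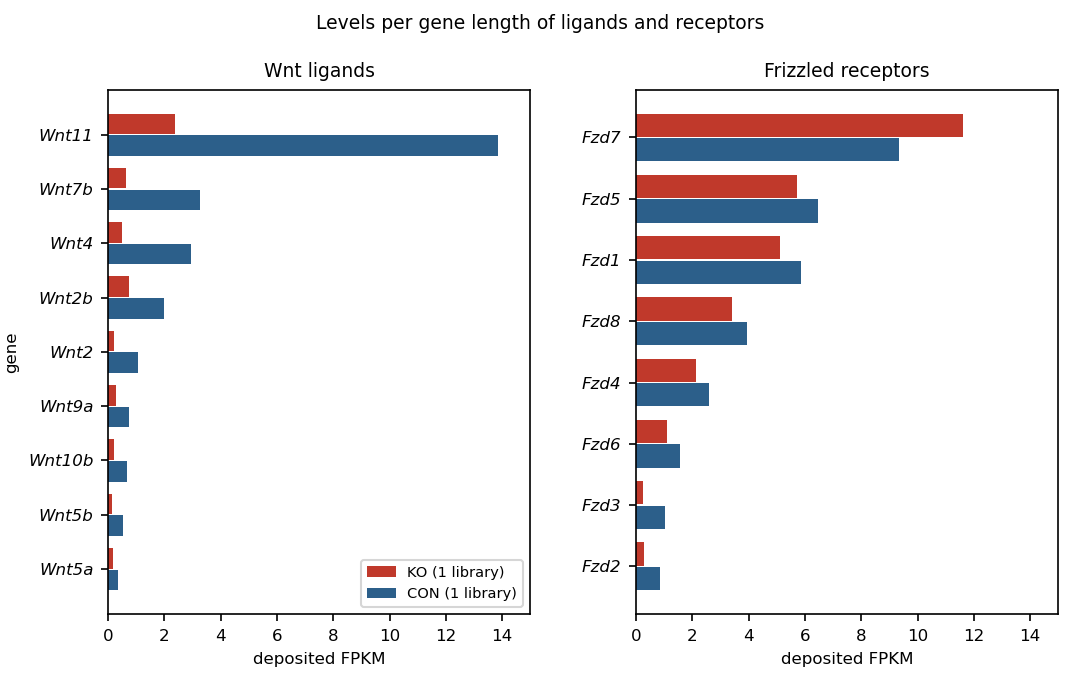
Deposited FPKM (x axis) of the measured ligands (left panel) and Frizzled receptors (right panel), with the KO bar (red) above the CON bar (blue) for each gene and 1 library per group. Wnt11 stands at 2.37 FPKM in KO and 13.9 FPKM in CON, while Fzd7, Fzd5, Fzd1, Fzd8 and Fzd4 keep the same order in both libraries.

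The Frizzled receptors differed among themselves. Fzd7, a receptor of mesenchymal and stem cells, had 842 reads (62.1 CPM) in KO and 724 reads (40.2 CPM) in CON, a ratio of 0.63 (0.48 to 0.77) that did not reach the 2-fold rule. Fzd5 had 598 reads (44.1 CPM) in KO and 721 reads (40.0 CPM) in CON (0.14, -0.02 to 0.30). Fzd1 had 339 reads (25.01 CPM) in KO and 413 reads (22.9 CPM) in CON (0.12, -0.09 to 0.34). These 3 were the most abundant Frizzled genes in each library, and the intervals of Fzd5 and Fzd1 include no difference while staying well inside 2-fold. Fzd8 had 172 reads (12.7 CPM) in KO and 213 reads (11.8 CPM) in CON (0.10, -0.20 to 0.40). Fzd4, the receptor of endothelial norrin signalling, had 161 reads (11.9 CPM) in KO and 211 reads (11.7 CPM) in CON (0.02, -0.29 to 0.32). Fzd6, which acts in planar cell polarity, had 68 reads (5.02 CPM) in KO and 105 reads (5.83 CPM) in CON (-0.22, -0.68 to 0.24). None of these 6 was called by the main rule, and relative to the fibroblast markers Fzd7, Fzd5, Fzd1, Fzd8 and Fzd4 were called higher at 1.06 to 1.67, where 52.3% of all measured genes were.

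The remaining measured Frizzled genes were called lower on few reads. Fzd3, a polarity receptor like Fzd6, had 17 reads (1.25 CPM) in KO and 71 reads (3.94 CPM) in CON, a ratio of -1.63 (-2.51 to -0.87). Fzd2 had 16 reads (1.18 CPM) in KO and 49 reads (2.72 CPM) in CON, a ratio of -1.18 (-2.12 to -0.37), which was -0.66 and not called with the GC and length correction. Fzd9 had 0 reads in KO and 8 in CON, and Fzd10 had 0 in KO and 3 in CON, both below the filter. The counting interval of Fzd9 lay below 0, with an upper end of -0.36.

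Among the co-receptors Lrp5 and Lrp6 stood on opposite sides. Lrp5 had 155 reads (11.4 CPM) in KO and 489 reads (27.2 CPM) in CON, a ratio of -1.25 (-1.52 to -0.98) that was called lower. Lrp6 had 1079 reads (79.6 CPM) in KO and 788 reads (43.8 CPM) in CON, a ratio of 0.86 (0.73 to 1.00) that was not called. Within KO, Lrp5 FPKM was 0.145 of Lrp6 FPKM, and within CON it was 0.626. These FPKM ratios are not corrected for GC content, which was 54.7% for Lrp5 and 46.0% for Lrp6. With the GC and length correction Lrp5 was -1.06 and kept its call, and Lrp6 was 0.37. Relative to the fibroblast markers Lrp5 was -0.20 and not called. On that scale Lrp6 was called higher at 1.90, where 52.3% of all measured genes were. Ryk, a receptor with an inactive kinase domain, had 174 reads (12.8 CPM) in KO and 465 reads (25.8 CPM) in CON, a ratio of -1.01 (-1.27 to -0.75) that is just past 2-fold and that turned to 0.036 relative to the fibroblast markers. Ror1 had 47 reads (3.47 CPM) in KO and 65 reads (3.61 CPM) in CON (-0.06, -0.63 to 0.51), and Ror2 had 2 in KO and 14 in CON, below the filter.

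Rspo1 was the measured gene of the set with the lowest ratio. It had 22 reads (1.62 CPM) in KO, against 165 reads (9.16 CPM) in CON, a ratio of -2.47 (-3.21 to -1.85). The other R-spondins were below the filter. Rspo2 had 8 reads in KO and 0 in CON, with a counting interval that lay above 0 and began at 1.18. Rspo3 had 9 reads in KO and 8 in CON, and Rspo4 had 1 in KO and 3 in CON. Rspo1 made up 63.3% of R-spondin FPKM in KO and 94.9% in CON.

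Of the 5 measured secreted antagonists 2 were called lower. Wif1, which binds Wnt proteins, had 32 reads (2.36 CPM) in KO and 131 reads (7.27 CPM) in CON, a ratio of -1.61 (-2.23 to -1.06). Sfrp4 had 15 reads (1.11 CPM) in KO and 53 reads (2.94 CPM) in CON, a ratio of -1.39 (-2.34 to -0.56). These were the 2 called genes. Dkk3, a divergent Dickkopf and the antagonist list's most abundant gene, had 137 reads (10.1 CPM) in KO and 320 reads (17.8 CPM) in CON, a ratio of -0.81 (-1.11 to -0.52) short of 2-fold that was called only when libraries were scaled by total reads (-1.13), with FPKM plus 0.1 (-1.10) or at 1.5-fold. Sfrp2 had 35 reads (2.58 CPM) in KO and 64 reads (3.55 CPM) in CON (-0.46, -1.10 to 0.16). Sfrp1 had 100 reads (7.38 CPM) in KO and 158 reads (8.77 CPM) in CON (-0.25, -0.63 to 0.12). The intervals of these Sfrp genes include no difference, and relative to the fibroblast markers Dkk3 (0.23), Sfrp2 (0.59) and Sfrp1 (0.79) lay above 0. Sfrp5 had 8 reads in KO and 0 in CON, with an interval that began at 1.18, and Dkk2 had 2 in KO and 4 in CON. Antagonist FPKM summed to 7.05 in KO and 15.3 in CON, which was 1.24 times the ligand sum within KO and 0.579 times the ligand sum within CON. Single genes weigh heavily here, as Dkk3, counted as an antagonist by its family name alone, held 38.3% of the antagonist sum in KO and 38.7% in CON. Wnt11 held 41.7% of the ligand sum in KO and 52.6% in CON. FPKM is not corrected for GC content, whose median was 50.8% in the measured antagonists and 56.4% in the measured ligands.

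Axin2, the feedback target and scaffold of beta-catenin degradation, had 48 reads (3.54 CPM) in KO and 149 reads (8.27 CPM) in CON, a ratio of -1.22 (-1.73 to -0.75) that was called lower. After the GC and length correction it was -0.88 and not called. Lef1 had 103 reads (7.60 CPM) in KO and 182 reads (10.1 CPM) in CON (-0.41, -0.77 to -0.05), and was not called. Tcf7, the TCF of T cells, had 592 reads (43.7 CPM) in KO and 563 reads (31.3 CPM) in CON (0.48, 0.31 to 0.65), also without a call. The 3 genes thus differed in direction, although relative to the fibroblast markers Lef1 lay above 0 as well, at 0.63. The T cell markers Cd3e, at 5.16 CPM in KO and 5.55 CPM in CON, and Cd3g, at 6.42 CPM in KO and 6.05 CPM in CON, stood at ratios of -0.10 and 0.08. Cd4, at 15.9 CPM in KO and 12.05 CPM in CON, Cd8b1, at 3.54 CPM in KO and 2.44 CPM in CON, and Trbc2, at 14.2 CPM in KO and 12.8 CPM in CON, had ratios of 0.40, 0.53 and 0.14. Cd8a, at 8.41 CPM in KO and 1.83 CPM in CON, was called higher at 2.18. The part of T cells in Tcf7 was not tested.

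**Figure D3:**
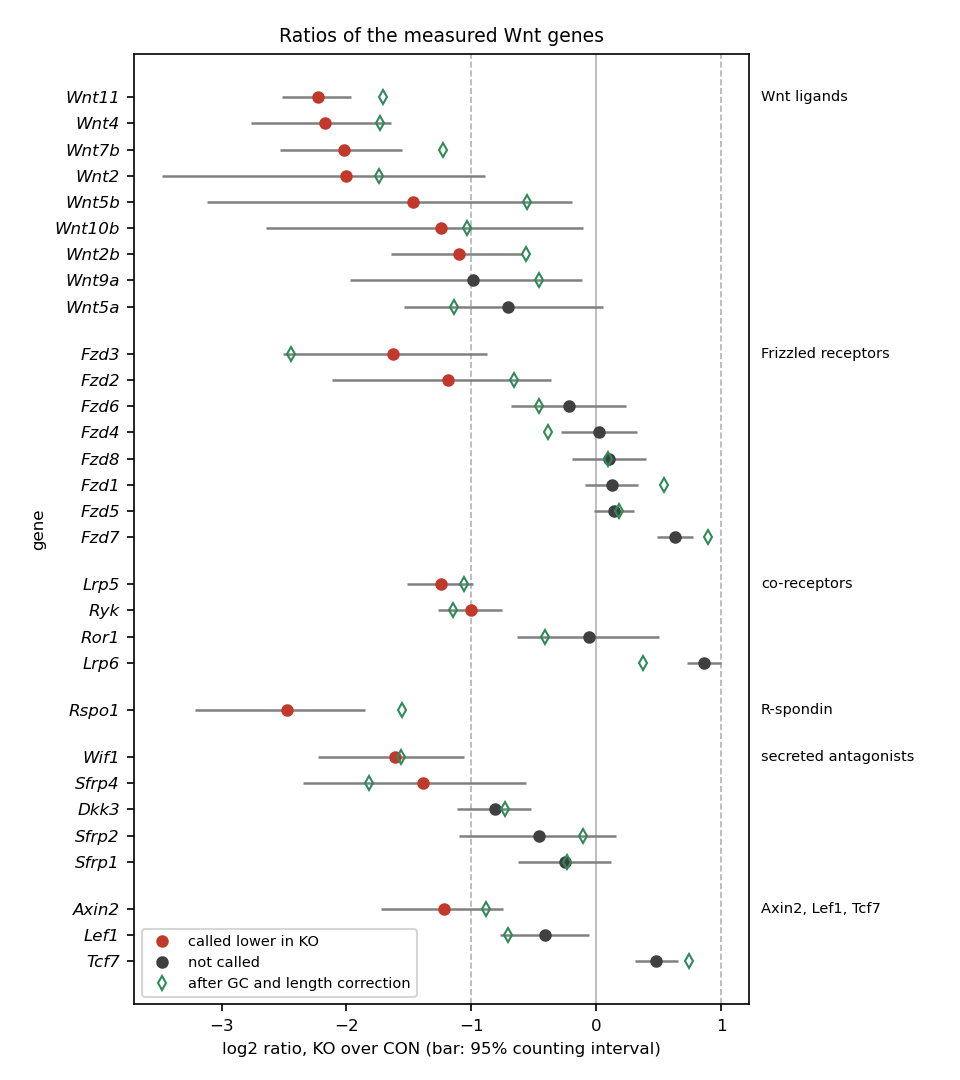
Log2 ratio of KO over CON (x axis) of the 30 measured Wnt genes by role, with the 95% counting interval as a bar, genes called lower in red, genes not called in dark grey, and the ratio after GC and length correction as green diamonds. Dashed lines mark 2-fold. Wnt11, Wnt4, Wnt7b, Wnt2 and Rspo1 lie beyond -2, and no gene lies beyond 1.

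Ratios between related genes within a library do not depend on how the libraries are scaled. They were computed for 10 pairs, chosen with the values known, and the change of the ratio in KO over CON is given on the log2 scale with its exact counting interval. Lrp5 over Lrp6 changed by -2.11 (-2.41 to -1.81). Wnt11 over Fzd7, the most abundant ligand over the most abundant Frizzled, changed by -2.86 (-3.18 to -2.55). Fzd2 over its close relative Fzd7 changed by -1.83 (-2.76 to -0.98), and Fzd3 over Fzd6 by -1.43 (-2.41 to -0.51). In these 4 pairs the first gene was lower in KO relative to its partner. Axin2 over Axin1, the constitutive scaffold, changed by -1.40 (-1.91 to -0.91), Sfrp4 over Sfrp1 by -1.16 (-2.17 to -0.22) and Ror2 over Ror1 by -2.32 (-5.57 to -0.10), the last on 2 reads of Ror2 in KO. For Wnt2 over Wnt2b (-0.96, -2.47 to 0.36), Wnt5b over Wnt5a (-0.80, -2.59 to 0.80) and Fzd5 over Fzd8 (0.04, -0.30 to 0.38) the interval included no change. With the GC and length correction the change of Lrp5 over Lrp6 was -1.43 and that of Wnt11 over Fzd7 was -2.60, while Wnt5b over Wnt5a turned to 0.58.

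GC content moved with the ratios across all genes. In bins of measured genes the median ratio was 0.75 at 37.3% GC and -1.01 at 62.6% GC. The measured Wnt genes had a median GC content of 52.2%, against 49.7% for all measured genes, and the 9 ligands had 56.4%. After subtraction of the trends on GC content and transcript length, 11 of the 30 measured Wnt genes were lower and none higher, against 10.9% lower and 5.36% higher over all measured genes. Of the 15 calls, 10 were kept, Wnt11 (-1.70), Wnt4 (-1.73), Wnt7b (-1.23), Wnt2 (-1.74), Rspo1 (-1.56) and Lrp5 (-1.06) among them. Wnt5b (-0.56), Wnt10b (-1.04), Wnt2b (-0.56), Fzd2 (-0.66) and Axin2 (-0.88) lost the call, and Wnt5a (-1.14) gained one. Fzd3 and Sfrp4, whose transcripts hold 40.3% and 44.4% GC, were further from 0 with the correction, at -2.44 and -1.82. The part of GC content in these ratios was not tested beyond this correction.

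**Figure D4:**
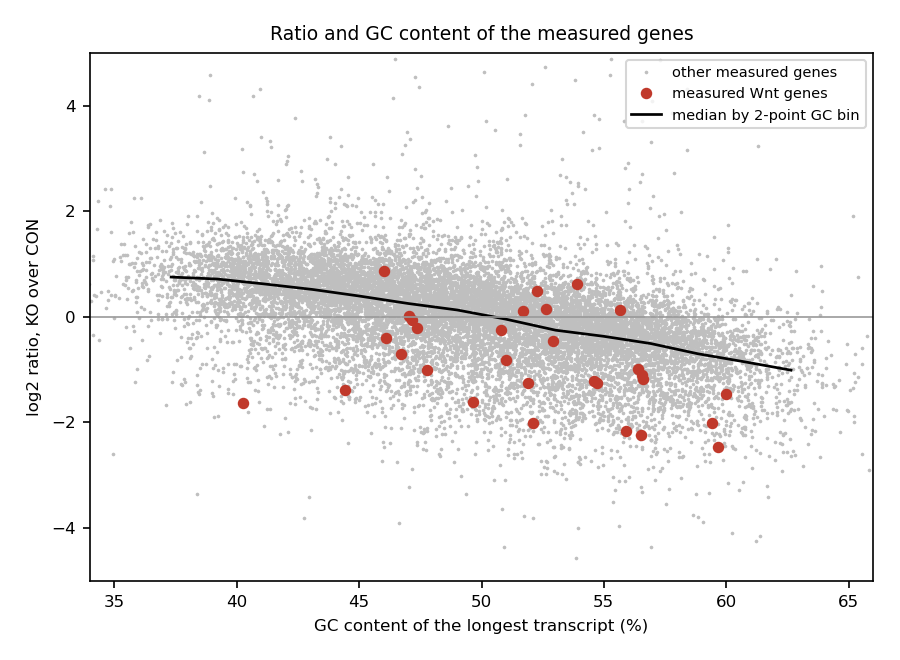
Log2 ratio of KO over CON (y axis) against the GC content of the longest transcript (x axis, percent) for the measured genes, with the measured Wnt genes in red, other genes in grey and the median by GC bin as a black line. Of all genes plotted 90 fall outside the axes, none of them a Wnt gene. The median runs down with GC content, with 0.75 in the lowest bin and -1.01 in the highest.

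Of 88 other genes of the pathway in 6 lists, 79 were measured, 19 were called lower and 5 higher, with a median ratio of -0.23, against 14.2% lower, 9.37% higher and a median of 0.01 over all measured genes. Of the 74 with at least 1 CPM in both libraries 17 were lower, against 11.6% of all genes with that level in both. For secretion and release, Porcn, the acyltransferase that attaches the lipid to Wnt proteins, had 53 reads (3.91 CPM) in KO and 263 reads (14.6 CPM) in CON (-1.89, -2.36 to -1.47), and the glypican Gpc3 had 923 reads in KO and 2874 in CON (-1.23, -1.34 to -1.12). These 2 of 5 were lower. Wls, the carrier that takes Wnt proteins to the cell surface, was at 236 CPM in KO and 159 CPM in CON (0.57) and was not called.

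At the cell surface 2 of 10 measured regulators (20%) were lower and none higher, against 14.2% lower and 9.37% higher over all measured genes. Rnf43, a ligase that removes Frizzled from the membrane and is itself a Wnt target, had 22 reads in KO and 60 in CON (-1.02, -1.81 to -0.31), and Gpr124, a co-activator of Wnt7 signals, had 61 reads in KO and 181 in CON (-1.15, -1.60 to -0.73). Neither kept its call with the GC and length correction, at -0.58 and -0.49. The R-spondin receptors Lgr4, with 45 reads in KO and 59 in CON, and Lgr5, with 15 reads in KO and 20 in CON, had ratios of 0.02 and -0.01.

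Called lower were 6.67% of cytoplasmic genes, 21.4% of nuclear factors and 20% of polarity and calcium genes, against 14.2% of all measured genes. Called higher were 13.3%, 0% and 5% of them, against 9.37%. With so few genes per list, no difference from all genes is read from these shares. Of 15 measured cytoplasmic genes Nkd1, a feedback inhibitor, was lower with 130 reads in KO and 521 in CON (-1.590, -1.88 to -1.31). Gsk3b (1.10), the kinase that marks beta-catenin for degradation, and Apc (1.01), its scaffold, were called higher, but not with the correction, at 0.61 and 0.41. Ctnnb1, the gene of beta-catenin, was at 1176 CPM in KO and 874 CPM in CON (0.43) without a call. Of 14 nuclear factors Tle2 (-1.60), Tcf7l1 (-1.43) and Sox17 (-1.33) were lower and none higher, and of these Sox17 alone kept the call with the correction. That call rests on few reads, as Sox17 had 9 reads (0.66 CPM) in KO and 31 reads (1.72 CPM) in CON. Its interval was -2.63 to -0.27, and it passed the filter through CON only. Of 20 measured genes of the polarity and calcium branches Vangl1 (-1.54), Celsr1 (-1.52), Ptk7 (-1.33) and Celsr2 (-1.22) were lower, and Daam1 (1.44), a formin that links Dishevelled to the cytoskeleton, was higher. Vangl1, a core polarity protein, kept its call with the correction, at -1.86, while Celsr1, Ptk7 and Celsr2 did not.

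Among 15 genes reported elsewhere as Wnt targets 7 were lower, against 14.2% of all measured genes, and the median was -0.93. Nrcam (1.17) and Cd44 (1.16) were higher, against 9.37% of all measured genes, without keeping the call after the correction. Of the called genes, Wisp2 passed the filter through CON only and Nrcam through KO only. Of the 12 targets with at least 1 CPM in both libraries 6 were lower, against 11.6% of all genes with that level in both. Wisp2, a matricellular gene, had 11 reads in KO and 88 in CON (-2.54, -3.64 to -1.68), Tnfrsf19 had 18 reads in KO and 79 in CON (-1.70, -2.55 to -0.97), and Bambi, a decoy receptor of the TGF-beta family, had 79 reads in KO and 301 in CON (-1.51, -1.90 to -1.16). Myc was at 54.6 CPM in KO and 149 CPM in CON (-1.45). These 4 and Lbh (-1.26) also kept the call with the correction, while Fosl1 (-1.18) and Jun (-1.14) lost it at -0.37 and -0.68, and the median of the list was then -0.37. Many genes of this list answer to several pathways, and Ccnd1, a much used target, was at 47.1 CPM in KO and 49.1 CPM in CON (-0.06).

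Fibroblast, mesothelial, epithelial, endothelial and smooth muscle or myofibroblast markers had median ratios below 0, as the ligands did. Over all measured genes 14.2% were lower and 9.37% higher. Fibroblast markers had a median ratio of -1.04 with 9 of 15 lower and 1 higher, Fap (1.09). Dcn, at 207 CPM in KO and 427 CPM in CON, and Col1a2, at 146 CPM in KO and 254 CPM in CON, had the highest CPM of the list in CON. Mesothelial markers had a median of -1.71 with 6 of 6 measured lower, airway epithelial markers -2.12 with 7 of 7 lower, alveolar epithelial markers -0.85 with 5 of 10 lower and 1 higher, and endothelial markers -0.97 with 4 of 11 lower. Of the airway markers Krt5 and Krt15 passed the filter through CON only. Of the 5 airway markers with at least 1 CPM in both libraries 5 were lower, against 11.6% of all genes with that level. Summed levels were 223 CPM in KO and 709.7 CPM in CON for mesothelial markers, 2243 CPM in KO and 8516 CPM in CON for airway markers, and 4292 CPM in KO and 8515 CPM in CON for alveolar markers. Smooth muscle and myofibroblast markers summed to 56.4 CPM in KO and 84.8 CPM in CON, with a median ratio of -0.84 and 2 of 7 lower. Acta2, whose promoter drives the Cre, was at 16.6 CPM in KO and 31.4 CPM in CON, and Tagln was at 12.4 CPM in KO and 22.3 CPM in CON. Macrophage markers had a median of 0.88 with 5 of 11 higher, and neutrophil markers 1.40 with 3 of 6 higher and 1 lower. Lymphocyte markers had a median of -0.01, with 4 of 12 lower and 2 higher. With the GC and length correction 0 of 10 alveolar markers were lower and 1 higher, against 10.9% and 5.36% of all measured genes. Lower were then 8 of 15 fibroblast, 5 of 6 mesothelial, 6 of 7 airway, 4 of 11 endothelial and 1 of 7 smooth muscle markers. Of macrophage markers 6 of 11 were then higher. Neutrophil markers had 3 higher and 1 lower, lymphocyte markers 1 higher and 4 lower.

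Single markers show that the libraries held RNA of other cells, though the level of a marker does not measure how much. Lyz2, the lysozyme of macrophages, was at 24231 CPM in KO and 11221 CPM in CON, and Chi3l3 was at 10185 CPM in KO and 5976 CPM in CON. Sftpc, the surfactant gene of alveolar type 2 cells, was at 2071 CPM in KO and 5413 CPM in CON, and Sftpa1 was at 866 CPM in KO and 1283 CPM in CON. Scgb1a1, the club cell secretoglobin, was at 1887 CPM in KO and 7161 CPM in CON, and Cyp2f2 was at 184 CPM in KO and 802 CPM in CON. Of these Sftpc, Scgb1a1 and Cyp2f2 were called lower and Lyz2 higher, while Sftpa1 (-0.57) and Chi3l3 (0.77) were not called. With the GC and length correction Sftpc (-0.83) lost its call, while Scgb1a1 (-1.63), Cyp2f2 (-1.74) and Lyz2 (1.12) kept theirs. Within the same lists Pdpn, of alveolar type 1 cells, was called higher at 2.44, and Marco stood at -0.36 without a call. Krt19, listed for mesothelium and also made by epithelium, was at 170 CPM in KO and 487 CPM in CON, and Upk3b was at 16.6 CPM in KO and 104 CPM in CON. Vwf was at 65.7 CPM in KO and 77.6 CPM in CON, and Pecam1 was at 30.1 CPM in KO and 59.35 CPM in CON, both endothelial. The neutrophil gene S100a9 was at 102 CPM in KO and 25.8 CPM in CON, S100a8 at 76.0 CPM in KO and 15.7 CPM in CON. Ltf, of the same list, was called lower with 139 reads in KO and 503 in CON (-1.44, -1.73 to -1.17), and Camp and Retnlg were not called. The B cell genes also went the other way from S100a9 and S100a8. Cd79a was at 37.5 CPM in KO and 161 CPM in CON, and Cd79b at 37.5 CPM in KO and 120 CPM in CON. No marker of these lists had 0 reads in either library, and the part of cell composition in the Wnt ratios was not tested.

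Relative to the median of the fibroblast markers, which raises every ratio by 1.04, the median of the measured Wnt genes was 0.046. On that scale Rspo1 (-1.43), Wnt11 (-1.19) and Wnt4 (-1.13) were still called lower, against 2.28% of all measured genes, and Wnt7b (-0.98) and Wnt2 (-0.96) were short of 2-fold. The shift is a single median without an interval. Before it, the fibroblast markers ran from -2.70 (Inmt) to 1.09 (Fap), and Rspo1, Wnt11 and Wnt4 lay inside that range. Whether they differ from fibroblast genes was therefore not settled. Lrp6 (1.90), Fzd7 (1.67) and Tcf7 (1.52) led 7 genes called higher, against 52.3% of all measured genes.

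**Figure D5:**
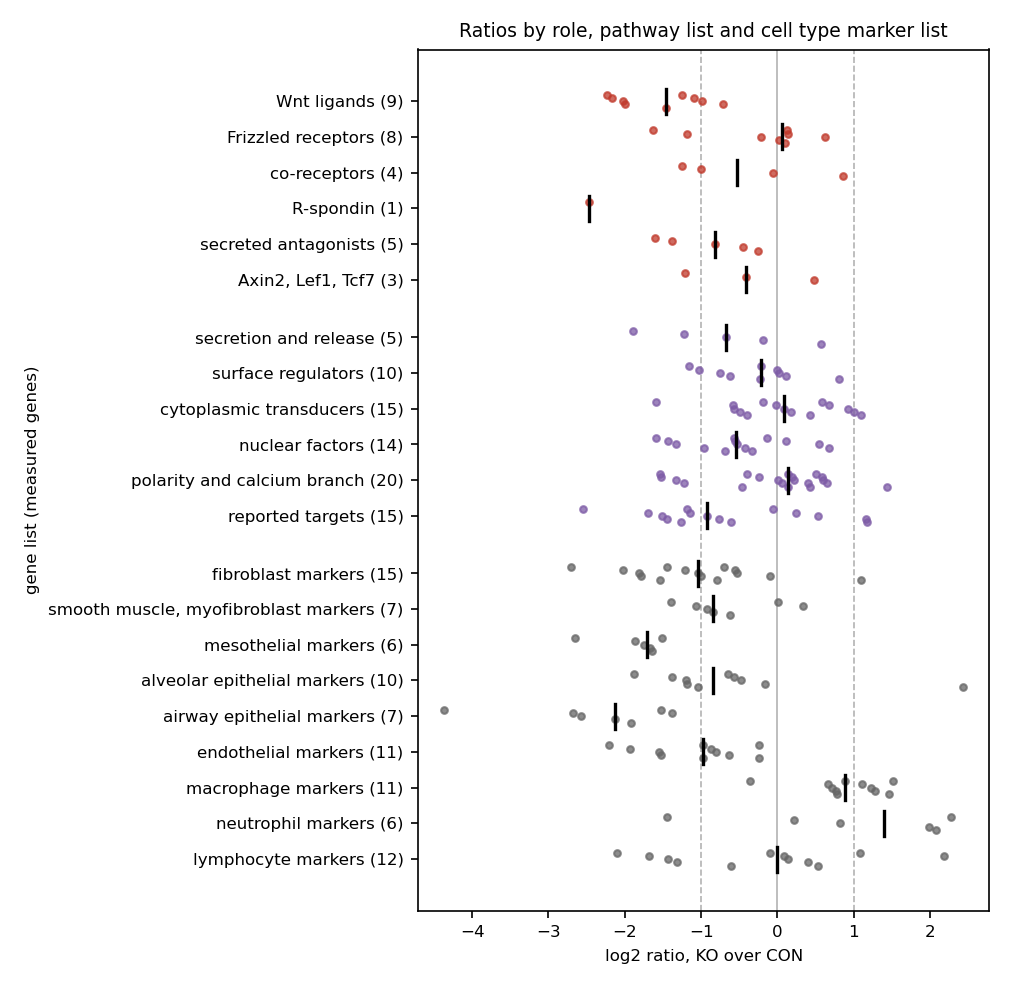
Log2 ratio of KO over CON (x axis) of each measured gene by role of the Wnt genes (red), list of other pathway genes (purple) and cell type marker list (grey), with the number of measured genes in parentheses and the median as a black bar. The ligand median is -1.46 and the Frizzled median 0.06, beside -1.04 for fibroblast, -1.71 for mesothelial and -2.12 for airway epithelial markers.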

How the data were processed

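Per the labels' protocols, libraries of total RNA were made with the Nextera XT kit from cells isolated as lung fibroblasts, 1 KO and 1 CON library. The authors deposited 1 table with estimated counts of reads and FPKM per gene, in 4 value columns assigned to libraries by name. The submitters' processing notes name TopHat, Cufflinks, GRCm38 and mm10, with roles and versions not given in the sources used here. Non-whole values made up 73.3% of the deposited estimated counts above 0 in KO and 76.1% in CON, so they were rounded here. FPKM per read differed between libraries by a constant factor of 1.07 between the 1st and 99th percentile of genes, so deposited FPKM is the estimated count over gene length and total reads and is no second measurement.

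Libraries were scaled with TMM (edgeR 4.0.16, R 4.3.3), and the log2 ratio used a prior count of 0.5. Exact conditional binomial (Clopper-Pearson) 95% intervals came from scipy 1.17.1 under Python 3.11.15. Without molecular identifiers a read need not be its own molecule, and intervals cover counting error only. A correction subtracted lowess trends (span 0.3, statsmodels 0.14.6) fitted on the longest GENCODE M21 transcript (its GC content and its log2 length), available for 98.9% of measured genes and all 50 Wnt genes. Simulated counts with known changes were used to test the arithmetic. All 50 gene identifiers were found in GENCODE M21 on GRCm38, 30 with identical coordinates. Promoter sequences are from RefSeq.

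The genes, the 15 gene lists of 177 symbols, the gene pairs and the call rule were chosen with earlier results of these data known. All measured Wnt genes are named with values. Of each other pathway list up to 4 called genes by size are named, or the most abundant where none was called, and of each marker list the 2 genes with most CPM. Genes named outside this rule were chosen after their values were seen. They include Celsr2, Nrcam, Cd44, Lbh, Fosl1, Jun, Pdpn, Marco, Ltf, Camp, Retnlg, Inmt, Fap, Wls, Lgr4, Lgr5, Ctnnb1, Ccnd1 and the T cell genes. The 13 alternatives were other scalings (total reads, DESeq2 1.42.0 size factors, fibroblast markers), log2 FPKM, other filters, folds and intervals, another prior count and the correction above.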

Additional observations from a re-analysis of the deposited data

How the results depend on the processing

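No paired analysis was possible because each group has 1 library. Of 362 values of single Wnt genes under the 13 alternatives, 304 had the same call as in the report, 41 lost a call, 16 gained one and Ryk, called lower by the main rule, stood at 0.036 relative to the fibroblast markers. Of the 304, 21 belonged to uncalled genes and lay on the other side of 0, among them Fzd1, Fzd4, Fzd5 and Fzd8 with total reads and 8 genes relative to the fibroblast markers. Wnt11 and Wnt4 kept their calls under all 13, and Rspo1 under the 12 in which it was measured. Some alternatives leave the ratios as they are and cannot remove a call from a gene that stays measured. These are no filter, the 10 CPM filter, the 1.5-fold rule and the fold without an interval, so a kept call there was fixed in advance. The 15 lower of 30 measured Wnt genes became 3 of 30 relative to the fibroblast markers, where 2.28% of all measured genes were lower. They became 7 of 24 with log2 FPKM plus 1 (12.3% of all genes) and 5 of 14 with at least 10 CPM (9.41%). With the 4-fold rule (2.75%) and with an interval beyond 2-fold (6.45%) they were 5 of 30. The 0 higher Wnt genes became 7 relative to the fibroblast markers, where 52.3% of all genes were higher. They became 2 without a filter (Rspo2 and Sfrp5), where 7.26% were, and 2 at 1.5-fold (Fzd7 and Lrp6), where 22.1% were. The median ratio of the measured Wnt genes, -0.996, was -1.31 with total reads alone and -0.20 at 10 CPM or more. It was -0.68 with the GC and length correction and 0.046 relative to the fibroblast markers. Under these 4 the median of all genes was -0.32, 0.14, 0.04 and 1.05. The 19 lower of 79 measured other pathway genes became 1 of 79 relative to the fibroblast markers and at 4-fold. They became 12 of 64 with FPKM plus 1 and 12 of 79 with an interval beyond 2-fold. The shares of all genes called lower are those given above for the same settings. The 5 higher ones became 1 with total reads, with FPKM plus 1 or plus 0.1 and with the correction, 33 relative to the fibroblast markers, 12 at 1.5-fold, 0 at 4-fold and 2 with an interval beyond 2-fold. The split of calls over all measured genes moved too, with 60.2% of calls lower by TMM, 84.5% by total reads and 4.17% relative to the fibroblast markers. The cause of these shifts was not tested. Depth limits the 20 Wnt genes below the filter, and 1 library per group limits every comparison.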
